A study of Mus musculus with 8 samples.

Results

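Early mesendoderm genes are the genes that the embryo switches on as the epiblast forms the primitive streak and gives rise to mesoderm and definitive endoderm. The set held 9 genes, *Eomes*, *Mixl1*, *Gsc*, *Evx1*, *Wnt3*, *Fgf8*, *Lhx1*, *Mesp1* and *Foxa2*, chosen by symbol, and all 9 were found among the 23337 gene names of the table. Polyadenylated RNA was sequenced from 4 mouse ES cell clones, numbered 6, 20, 30 and 36, once at passage 6 and once at passage 16, so that each of the 8 libraries stands for 1 clone and passage. The labels describe every sample as wild type, of strain 129S1, from mouse blastocysts, grown in DMEM medium with LIF and expanded in vitro. The design text adds that the donor blastocysts expressed GFP from the *Rosa26* locus and that the 4 clones were independent lines. The methods name C57BL6 for a pair of cultured clones, so the strain is given here as the labels have it. No sample was labelled as differentiated, so the levels below are background levels in ES cell cultures, with no positive control for gastrulation. Whether the cultures held some differentiated cells was not tested.

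In the embryo, WNT3 acts through beta-catenin to start the streak, Nodal signalling feeds into EOMES, and FGF8 is needed for cells to leave the streak. EOMES, MIXL1, GSC, EVX1, LHX1, MESP1 and FOXA2 are transcription factors that divide the streak into its fates, with MESP1 marking early cardiac and cranial mesoderm, GSC and LHX1 the anterior streak and organizer, EVX1 the posterior streak, and FOXA2 the anterior streak and endoderm. Mouse ES cells kept with LIF are mostly undifferentiated, and a minority of cells can carry transcripts of lineages they have not yet entered.

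Promoter sequence is shown for 3 members that span the range of levels and of CG content: *Eomes* had the highest mean count, and *Lhx1* and *Mesp1* the lowest. The 250 bases before the transcript start are given 5′ to 3′ on the gene's strand, with each CG dinucleotide in capitals, from RefSeq windows on GRCm38.p6. They lie at chr9:118477939-118478188 on the plus strand for *Eomes*, at chr11:84525535-84525784 on the minus strand for *Lhx1* and at chr7:79793591-79793840 on the minus strand for *Mesp1*.
Eomes: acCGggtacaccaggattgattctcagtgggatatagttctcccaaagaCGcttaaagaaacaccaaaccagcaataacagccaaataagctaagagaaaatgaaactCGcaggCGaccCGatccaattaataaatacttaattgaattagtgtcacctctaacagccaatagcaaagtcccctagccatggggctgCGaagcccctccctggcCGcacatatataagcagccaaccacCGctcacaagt
Lhx1: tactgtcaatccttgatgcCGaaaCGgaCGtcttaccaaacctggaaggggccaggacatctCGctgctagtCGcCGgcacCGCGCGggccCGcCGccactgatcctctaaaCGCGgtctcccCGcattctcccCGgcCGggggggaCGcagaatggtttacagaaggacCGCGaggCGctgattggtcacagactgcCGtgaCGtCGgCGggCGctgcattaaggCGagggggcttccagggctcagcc
Mesp1: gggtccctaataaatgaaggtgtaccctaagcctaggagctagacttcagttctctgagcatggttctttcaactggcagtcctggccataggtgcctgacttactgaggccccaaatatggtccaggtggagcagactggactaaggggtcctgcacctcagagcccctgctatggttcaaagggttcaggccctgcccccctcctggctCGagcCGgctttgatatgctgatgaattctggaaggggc

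The *Eomes* window held 8 CG dinucleotides, the *Lhx1* window 26 and the *Mesp1* window 2, against a median of 6 over 32851 windows of the same length. The members at the bottom of the range in RNA therefore had the most and the fewest CG dinucleotides of the members examined. Windows were found for 7 members, 9 windows in all, because *Foxa2* has 3 transcript starts. The letters CTTTGAT, a form of the site bound by TCF and LEF factors, were present on either strand in the *Mesp1* window and in no other member window, and 3.21% of all windows held them. AGGTGTGA, a T-box site, was in 0 of the 9 member windows and in 1.12% of all windows, and TGTGGATT, a FOXH1 site, was in 0 of the 9 and in 0.718% of all. None of these 3 motifs contains another.

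The deposited values are normalized counts, that is reads on each gene divided by 1 size factor per library. Libraries held between 21394069 and 34295561 reads, so that 1 read was worth between 0.821 and 1.336 normalized counts and 3 reads between 2.46 and 4.01. The pluripotency factors *Pou5f1* (25674 normalized counts on average), *Zfp42* (14035 as listed) and *Esrrb* (11078) were high, as the label of ES cells has it, with at least 9463 normalized counts in every library. The rows of *Zfp42* and *Sox2* lie in groups that can be out of register between libraries, as described below. *Sox2* ran from 460 to 9673 as listed. The summed level of the 6 pluripotency markers with rows in place was between 59847 and 64104 normalized counts at passage 6 and between 61490 and 66765 at passage 16. The limma fit called 0 of the 8 listed markers between passages. An unadjusted p under 0.05 was found for 3 of them, and for 3.5% of all names. These were *Nanog* (log2 difference 0.27, passage 16 minus passage 6), *Klf4* (0.28) and *Utf1* (-0.18). Of the 8 listed fibroblast markers, the collagen genes *Col1a2* (2614), *Col1a1* (1667) and *Col3a1* (360) were the most abundant. The others were lower, at 148 for *Postn*, 49.3 for *Thy1*, 35.1 for *Dcn*, 4.89 for *Twist2* and 3.79 for *Lum*. Whether feeder cells were in the cultures is not given in the sources used here.

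Rows were checked for register, because part of the table does not hold the same gene on the same row in each library. Lines made of a name and its count stood in alphabetical order in the passage 6 library of clone 6, with 2 neighbouring pairs out of order, whereas each of the remaining 7 libraries had between 130 and 220 such pairs. Apart from 2 in each library, these lay within 650 groups of names in which a name is continued by another with a digit. Of the 9 members, 8 lay outside such groups, and their rows are called in place below. They were in order with both neighbours in 8 of 8 libraries. For these 8 the names alone set that order whatever the counts, so the check could not have shown a displaced value. The exception was *Gsc*, which is followed by *Gsc2*.

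*Gsc* encodes goosecoid, a homeobox repressor of the organizer, and *Gsc2* its relative. In clones 6, 20, 30 and 36, the *Gsc* row listed 21.4, 14.4, 4.11 and 18.95 normalized counts at passage 6 and 17.5, 2.87, 1.93 and 2.05 at passage 16. The *Gsc2* row listed 5.34, 2.70, 25.5 and 4.74 at passage 6 and 7.02, 23.0, 41.6 and 29.7 at passage 16. Where the *Gsc* row was low, the *Gsc2* row was high, in the same 4 libraries. In 2 of these, the passage 6 library of clone 30 and the passage 16 library of clone 20, the listed values could not stand in alphabetical order and their exchange could, which makes *Gsc* 31 and 24 reads there and *Gsc2* 5 and 3. In the other 6 libraries either assignment left the lines in order, and the one closest to the passage 6 library of clone 6 was taken, which exchanged the passage 16 libraries of clones 30 and 36 (43 and 29 reads for *Gsc*, 2 and 2 for *Gsc2*).

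With the rows in order, *Gsc* was 21.4, 14.4, 25.5 and 18.95 normalized counts at passage 6 and 17.5, 23.0, 41.6 and 29.7 at passage 16. The passage difference then turned, from -1.44 on the log2 scale as listed (SE 0.728, lower at passage 16 in 4 of 4 clones) to 0.42 (SE 0.30, higher in 3 of 4). The limma adjusted p was 0.947 as listed and 0.975 in order, and the two-sided exact permutation test of the means, 4 libraries against 4, gave p = 0.171 and p = 0.2. Exchanging only the 2 libraries in which the order left no choice gave -1.38, so the direction rests on the passage 16 libraries of clones 30 and 36, whose assignment the row order did not fix. *Gsc* is therefore reported as 24.0 ± 8.55 normalized counts (SD, n = 8) in order and 10.4 ± 8.44 as listed, with no direction between passages.

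**Figure D1:**
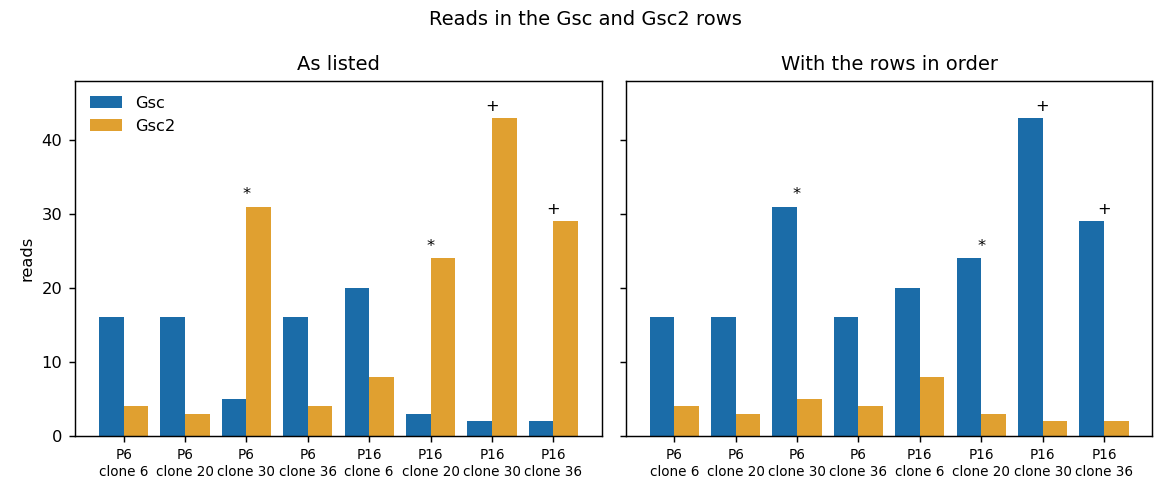
Reads in the *Gsc* row and the *Gsc2* row of each library (vertical axis, reads), on the left as listed and on the right with the rows in order. An asterisk marks the 2 libraries in which only the exchanged order was possible, and a plus sign the 2 in which both were possible and closeness to the passage 6 library of clone 6 decided; in order, *Gsc* lies between 16 and 43 reads and *Gsc2* between 2 and 8.

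The ligand genes were low but counted in every library. *Wnt3*, which lies at chr11:103774175-103818021, stood at 36.1, 74.8, 82.9 and 52.1 normalized counts in clones 6, 20, 30 and 36 at passage 6. At passage 16 the same clones had 29.8, 73.7, 67.7 and 55.3. Clone 6 was the lowest at either passage and its values did not overlap with those of the other clones, while the passages overlapped. This clone was singled out after the values were seen. How many other genes have a clone set apart in this way was not counted. The clone test described below did not call *Wnt3* (limma adjusted p = 0.334).

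*Fgf8*, at chr19:45736491-45742941, had 100.2, 34.2, 118 and 68.7 normalized counts at passage 6. At passage 16 it had 69.3, 92.8, 54.2 and 82.0. Clone 20 was lowest at passage 6 and highest at passage 16, and clone 30 was highest at passage 6 and lowest at passage 16, so no clone kept its place.

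*Eomes*, the T-box factor at chr9:118478186-118486132, was the most abundant member in normalized counts. Clones 6, 20, 30 and 36 had 267, 156, 112 and 211 at passage 6 and 167, 343, 138 and 277 at passage 16, or 136 to 359 reads. Clone 30 was lowest at both passages, and the highest was clone 6 at passage 6 and clone 20 at passage 16. Its mean was above that of 49.2% of the 19814 names with a read, so that it stood near the middle of the transcripts detected.

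*Foxa2*, the forkhead factor at chr2:148042877-148046969, was 72.2, 59.5, 36.9 and 155 normalized counts at passage 6. It was 37.7, 99.5, 29.0 and 74.8 at passage 16. The passage 6 library of clone 36 stood above all others, and clone 30 was lowest at both passages. From its lowest to its highest library *Foxa2* spanned 5.35-fold, against 3.08-fold for *Eomes*, 3.45-fold for *Fgf8* and 2.78-fold for *Wnt3*.

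The homeobox genes were scarcer. *Mixl1*, which helps to pattern streak mesoderm and endoderm and lies at chr1:180693043-180697034, had 13.4, 10.8, 28.7 and 7.11 normalized counts at passage 6 and 19.3, 8.61, 6.77 and 12.3 at passage 16. These are 6 to 35 reads per library, 113 in all, and the passage 6 library of clone 30 stood apart at 35 reads. *Evx1*, at chr6:52313498-52318389, had 8.02, 9.91, 4.93 and 8.29 at passage 6 and 1.75, 13.4, 4.84 and 5.12 at passage 16, from 56 reads in all. An antisense gene, *Evx1os*, overlaps *Evx1*, and *Gm33460* overlaps *Eomes* on the other strand. The libraries kept the strand, but whether the counting used it is not given in the sources used here, so a part of these reads could come from the antisense genes.

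*Lhx1*, a LIM homeobox gene at chr11:84517975-84525534, and *Mesp1*, a basic helix-loop-helix gene at chr7:79792241-79793590, were at the limit of detection. *Lhx1* had 0, 1.80, 0.821 and 7.11 normalized counts at passage 6 and 3.51, 6.70, 0.967 and 0 at passage 16. The 2 libraries at 0 allow up to 4.01 and 3.07 normalized counts, from the 3 reads that a count of 0 does not exclude. All 8 libraries together held 21 reads, which is a mean of 2.59 normalized counts with a 95% exact Poisson interval of 1.60 to 3.96.

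*Mesp1* had 4.01, 0, 3.28 and 0 normalized counts at passage 6 and 3.51, 0, 0.967 and 3.07 at passage 16, with 15 reads over all libraries. The pooled mean was 1.85 normalized counts, with an interval of 1.03 to 3.05. Clone 20 had no *Mesp1* read at either passage, which allows up to 2.70 and 2.87 normalized counts. The limits and intervals cover counting error only. *Mesp2*, its neighbour on chromosome 7 and a somite gene, was higher, at 31.6 normalized counts on average.

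**Figure D2:**
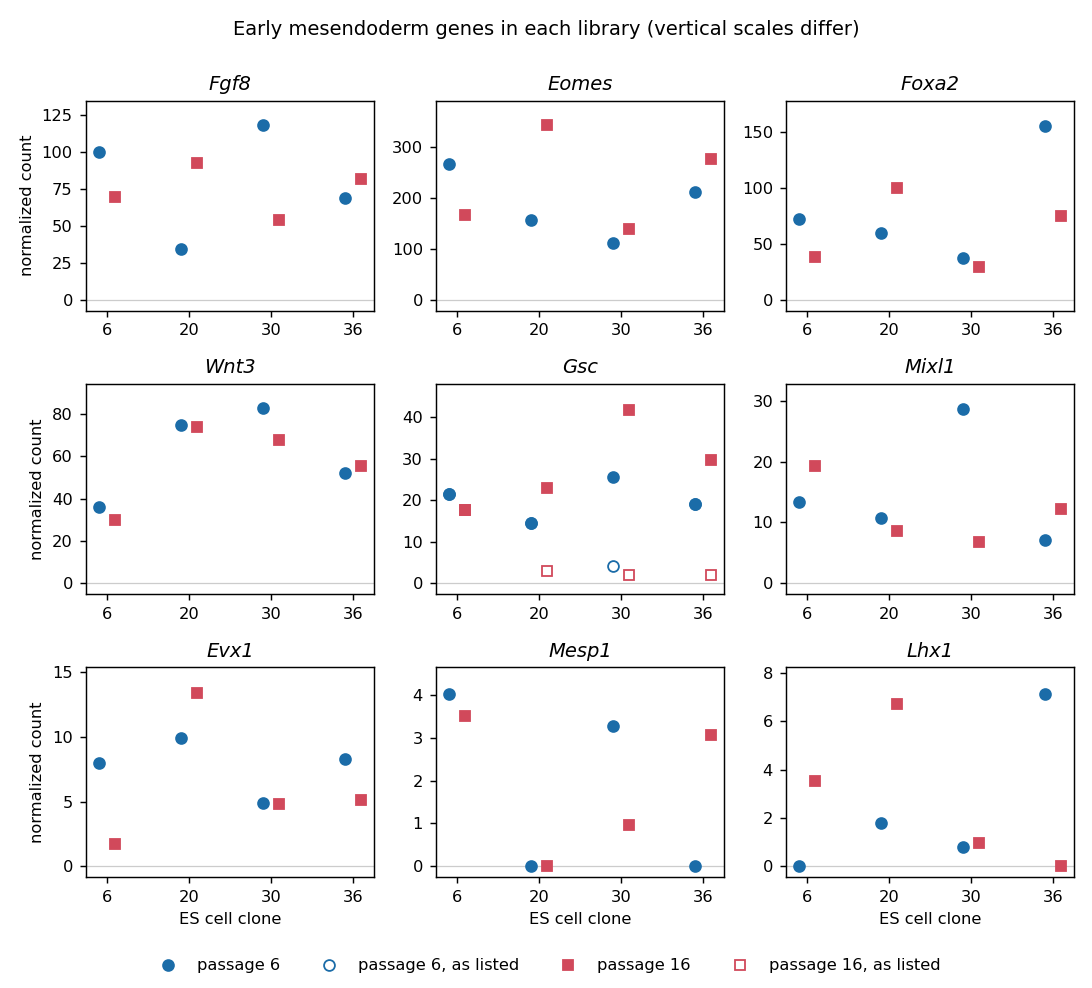
Normalized counts of each of the 9 members (vertical axes, scales differ) in clones 6, 20, 30 and 36 (horizontal axes), with circles for passage 6 and squares for passage 16, 1 library per point. Open symbols give *Gsc* as listed where it differs from the value in order; *Wnt3* is lowest in clone 6 and *Eomes* and *Foxa2* in clone 30 at both passages, and *Mesp1* and *Lhx1* fall to 0 in 3 and 2 libraries.

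Levels were compared between genes per kilobase of exon. On this scale *Fgf8* led with 57.4 ± 19.8 normalized counts per kb (SD over 8 libraries) and *Eomes* followed with 50.3 ± 19.3, and *Fgf8* was the higher of the pair in 5 of 8 libraries, so their order did not hold beyond the spread. *Foxa2* was at 29.8 ± 17.5 per kb, below *Eomes* in 7 of 8 libraries. *Wnt3* (19.2 ± 6.2) and *Gsc* in order (18.9 ± 6.74) were not separated, with *Wnt3* higher in 4 of 8 libraries. *Gsc* in order lay above *Mixl1* (5.83 ± 3.23) in 8 of 8 libraries, and *Mixl1* above *Evx1* (2.44 ± 1.26) in 7 of 8. The place of *Gsc* rests on the passage 16 libraries of clones 30 and 36, which were exchanged by closeness alone. As listed there, *Gsc* had 1.93 and 2.05 normalized counts, below *Mixl1* at 6.77 and 12.3. The mean of *Gsc* per kb was 12.3 with only the fixed exchanges and 8.21 as listed. *Evx1* was above *Mesp1* (1.46 ± 1.39) in 4 of 8 libraries, and *Mesp1* above *Lhx1* (0.642 ± 0.706) in 5 of 8, so neither pair was separated. For scale, *Pou5f1* was at 11400 ± 808 and *Nanog* at 3490 ± 406 normalized counts per kb.

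The members differed in how far their reads spread beyond counting error. The variance of the reads divided by that of counting alone, which is 1 where counting is the only source of spread, was 33.4 for *Eomes*, 24.2 for *Foxa2*, 10.1 for *Fgf8*, 6.34 for *Wnt3* and 4.47 for *Mixl1*. It was 3.01 for *Lhx1*, 2.05 for *Evx1* and 1.67 for *Mesp1*. This ratio grows with the number of reads, so it does not rank the relative spread of genes at different levels. For *Gsc* it was 6.89 as listed and 3.16 in order, where the 2 exchanges chosen by closeness lower it by their construction.

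The study compared passage 16 with passage 6, to ask whether expansion in culture had changed expression, and the same comparison was made for the members. None of the 9 was called. In the limma fit over the 14791 names that averaged at least 10 normalized counts, 1 name (0.00676%) had an adjusted p under 0.05, and it was no member. Of the members, 6 passed the filter on the mean, 0 of them had an unadjusted p under 0.05 (518 names did), and edgeR and DESeq2 called 0 of the members they tested, with 0 at an unadjusted p under 0.05 in either. The passage groups overlapped for 9 of 9 members, and they did not overlap for 2.43% of the names in the fit.

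*Eomes* averaged 186 ± 67.5 normalized counts at passage 6 and 231 ± 95.7 at passage 16 (SD, n = 4), a difference of 0.29 on the log2 scale (SE 0.364, limma adjusted p = 0.947), higher in 3 of 4 clones. *Foxa2* averaged 80.9 ± 51.6 and 60.3 ± 32.8, a difference of -0.39 (SE 0.525, adjusted p = 0.947), lower in 3 of 4 clones. The values of both genes came close to 0 when a single library was left out: *Eomes* to 0.067 without clone 20 at passage 16 and to 0.068 without clone 30 at passage 6, and *Foxa2* to -0.016 without clone 36 at passage 6. For *Wnt3* the difference was -0.12, for *Mixl1* -0.26 and for *Fgf8* 0.01, with adjusted p of 0.971, 0.956 and 1.0. The spread between clones leaves wide intervals: the 95% interval of the log2 difference ran from -0.55 to 1.13 for *Eomes*, -1.60 to 0.82 for *Foxa2*, -0.96 to 0.71 for *Wnt3*, -1.34 to 0.83 for *Mixl1* and -0.88 to 0.90 for *Fgf8*. The fit therefore does not show that these levels were the same at both passages.

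The 3 members under the filter were compared by the two-sided exact permutation test of the mean normalized count, 4 libraries against 4, whose smallest possible p is 0.0286. *Evx1* averaged 7.79 ± 2.08 at passage 6 and 6.28 ± 4.98 at passage 16 (exact p = 0.686). *Lhx1* averaged 2.43 ± 3.20 and 2.79 ± 2.99 (exact p = 0.886), and *Mesp1* 1.82 ± 2.13 and 1.89 ± 1.68 (exact p = 0.914). At 15 to 56 reads over all libraries, no difference between passages was detectable in these 3 genes.

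**Figure D3:**
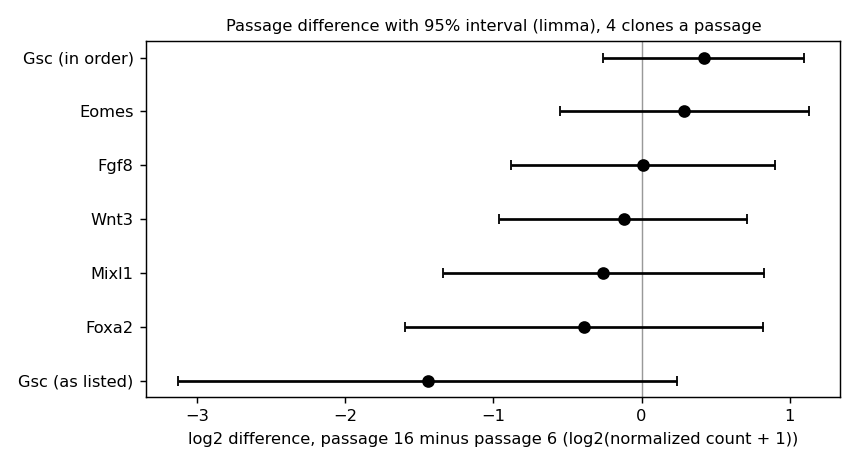
Log2 difference in normalized count, passage 16 minus passage 6 (horizontal axis), with its 95% interval from limma, for the members averaging at least 10, with 4 clones a passage. Every interval includes 0, and *Gsc* lies at -1.44 as listed and at 0.42 with the rows in order.

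Clones were compared in a fit with passage and clone as terms, in which each clone had 2 libraries, grown 10 passages apart, and 3 residual degrees of freedom remained. This F test called 20 of 14791 names (0.135%) and none of the members, while 1587 names and 1 member, *Wnt3*, had an unadjusted p under 0.05. *Wnt3* averaged 33.0 normalized counts in clone 6, 74.2 in clone 20, 75.3 in clone 30 and 53.7 in clone 36, a largest difference between clones of 1.17 on the log2 scale (limma adjusted p = 0.334). DESeq2 gave it an adjusted p of 0.0551.

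*Foxa2* had the largest difference between clones among the tested members with rows in place. Its clone means were 54.9, 79.5, 33.0 and 115 normalized counts in clones 6, 20, 30 and 36, a difference of 1.69 between clones 36 and 30 on the log2 scale (limma adjusted p = 0.477). The unadjusted p of *Foxa2* was 0.026 in DESeq2 (adjusted 0.19) and 0.0292 in limma without the displaced rows (adjusted 0.306). In these fits 18.0% and 14.1% of all names had an unadjusted p under 0.05. For *Eomes* the clone means were 217, 250, 125 and 244, a difference of 0.95 (adjusted p = 0.573). *Mixl1* and *Fgf8* differed by at most 0.72 and 0.55 between clones, with adjusted p of 0.824 and 0.884. Single libraries decided these sizes, since *Mixl1* differed by 1.67 without clone 30 at passage 16 and *Fgf8* by 1.49 without clone 20 at passage 16. *Gsc* differed by 2.40 as listed (adjusted p = 0.498) and 0.80 in order (adjusted p = 0.514). The clone that was lowest at passage 6 was also lowest at passage 16 for *Eomes*, *Wnt3* and *Foxa2*, that is 3 of the 6 members in the fit with *Gsc* in order and 4 of 6 with *Gsc* as listed. The same was true of 35.1% of all names in the fit, and 6 genes are too few to set the members apart from that share.

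The members did not vary as a block. Over the 8 libraries, the Pearson r of log2 levels was 0.71 between *Eomes* and *Foxa2*, 0.47 between *Mixl1* and *Fgf8* and -0.45 between *Mixl1* and *Foxa2*, and the other pairs of the 6 members lay between these. These values describe 8 libraries of 4 clones, which share culture, depth and scaling. Summed over the 9 members with *Gsc* in order, libraries held between 344 and 661 normalized counts, of which *Eomes* made up 27.0% to 52.0%. The passage 16 library of clone 20 was highest and that of clone 30 lowest.

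*Foxa2* moved with markers of primitive endoderm, the extraembryonic lineage in which it is also expressed. The summed level of 7 of the 8 listed markers (*Gata4*, *Gata6*, *Sox7*, *Dab2*, *Pdgfra*, *Foxq1* and *Lama1*; the row of *Sox17* lies in a displaced group) was 18771, 14562, 8761 and 32248 normalized counts in clones 6, 20, 30 and 36 at passage 6. It was 10870, 23830, 7154 and 18935 at passage 16. The library with the most *Foxa2*, clone 36 at passage 6, also had the highest sum, and the library with the least, clone 30 at passage 16, the lowest. The Pearson r between *Foxa2* and this sum on the log2 scale was 0.99 over the 8 libraries, and with each of the 7 markers it was between 0.92 and 0.99. With the sum of the 27 streak genes in place, a list that shares *Gata4*, *Gata6* and *Pdgfra* with these markers, r was 0.91 for *Foxa2* and 0.82 for *Eomes*, and with the pluripotency sum it was -0.66 and -0.52. None of the 7 markers was near 0 in any library, *Gata4* for instance lying between 252 and 1586 normalized counts.

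**Figure D4:**
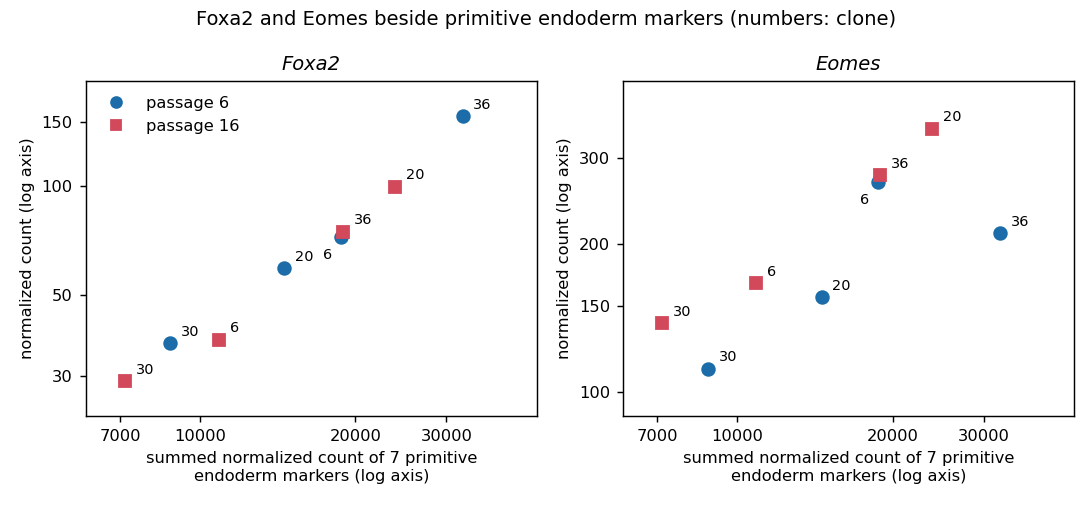
Normalized count of *Foxa2* (left) and *Eomes* (right) on log vertical axes against the summed normalized count of 7 primitive endoderm markers on log horizontal axes, 1 point per library, labelled by clone, with circles for passage 6 and squares for passage 16. The 8 libraries rank in the same order by *Foxa2* as by the markers (r = 0.99), whereas the *Eomes* point of clone 36 at passage 6 lies below those of 3 libraries with fewer marker counts (r = 0.78).

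For *Eomes* the r with the same sum was 0.78, and for *Mixl1*, *Wnt3*, *Fgf8* and *Gsc* in order it was -0.41, -0.14, 0.12 and -0.42. In bulk RNA, more cells of a type and more RNA per cell cannot be told apart, and the part of these markers in the *Foxa2* levels was not tested. The names most like *Foxa2* over the 8 libraries, among 12281 outside the displaced groups, were *Lamb1* (r = 0.988), *Lama1* (0.985) and *Col4a2* (0.983), which encode basement membrane chains, and 5.63% of the names had an r over 0.8. Those most like *Eomes* were *Vegfa* (0.987), *Gprasp2* (0.974) and *Mzt1* (0.97), with 4.96% of the names over 0.8. *Vegfa*, a vascular growth factor gene, was lowest in clone 30 at both passages, as *Eomes* was, at 979 and 1187 normalized counts, and highest in clone 20 at passage 16, at 2366. For *Gsc* as listed the nearest were *Taz* (0.938), *Echs1* (0.933) and *Palb2* (0.915), a likeness to a row that is out of register.

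Other genes of the streak were read from a list of 29, of which 25 had a mean of at least 10. The limma fit called 0 of the 25 between passages in either direction, and 1, *Sox17*, had an unadjusted p under 0.05, from a row in a displaced group (213 normalized counts at passage 6 and 17.4 at passage 16 as listed). The study itself reported *Sox17* as significantly lower at passage 16, from its own DESeq2 comparison, and *Sox18* as higher. Its *Sox17* change was smaller than the log2 difference of -3.3 in the listed row. Both names continue *Sox1* with a digit. Whether rows out of register entered the study's comparison was not tested. The median log2 difference of the 23 with rows in place was 0.05, against -0.0037 over all names. The most abundant of the list were *Otx2* (963 normalized counts), *Gata4* (809) and *Pdgfra* (677), genes that epiblast or primitive endoderm also express, whereas *Msgn1* (1.45), *Cer1* (1.64) and *Noto* (0.792) were as scarce as *Mesp1*. *T*, brachyury, the usual marker of the streak, was listed at 30.7, 41.4, 36.1 and 32.0 normalized counts at passage 6 and at 24.6, 49.7, 0 and 43.0 at passage 16. Its row is preceded by *T2*. In the passage 16 library of clone 30 only the exchanged order was possible, which gives *T* 20 reads or 19.3 normalized counts in place of the 0. Only the listed order was possible in 4 libraries. Either was possible in 3, namely clones 6 and 20 at passage 6 and clone 20 at passage 16. These were kept as listed, with the passage 6 library of clone 6 as the reference for closeness. In order, *T* averaged 35.1 ± 4.83 at passage 6 and 34.2 ± 14.5 at passage 16 (log2 difference -0.13, limma adjusted p = 0.976).

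Receptors, ligands and effectors of the Wnt, Nodal, BMP and FGF pathways were read from a list of 31, of which 31 had a mean of at least 10. Their means ran from 107 normalized counts (*Fgfr4*), below *Eomes*, upwards, led by *Ctnnb1* (30599 normalized counts), *Tdgf1* (15303), which encodes the Nodal co-receptor, and *Fgfr1* (4049), and *Nodal* itself was at 2027. The limma fit called 0 of the 31 between passages in either direction, with 0 at an unadjusted p under 0.05 and a median log2 difference of 0.03. In the clone test 0 were called, and 9 of the 31 had an unadjusted p under 0.05, which 10.7% of all names in that fit had. For the 25 streak genes these counts were 0 and 2 (*Cdx2* and *Sp5*).

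Markers of other lineages were present as well. The trophoblast markers with rows in place, led by *Tfap2c* (2276 normalized counts), *Hand1* (174) and *Gata3* (130), summed to between 2095 and 4103 normalized counts, and the neural markers with rows in place, led by *Nes* (2489) and *Pax6* (413), to between 2188 and 4653. *Sox1* (430 as listed) lies in a displaced group and is not in that sum. No listed gene was at 0 in all libraries. The r of *Foxa2* with the trophoblast sum was -0.83 and with the neural sum 0.39, and that of *Eomes* was -0.59 and 0.27. *Lama1* (12550) and *Dab2* (1714) were the most abundant of the primitive endoderm markers, ahead of *Gata4*.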

How the data were processed

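The 8 libraries were grouped by the passage and clone in their labels. According to the submitters' processing notes and the methods, the authors aligned reads to GRCm38 with TopHat2 (2.0.10) and Bowtie (1.0.0), counted them with HTSeq (0.5.3p9) and used DESeq2. What the authors deposited is a size-factor-scaled signal for each gene, from which the reads were recovered by undoing the scaling, and 100% of values came out whole within 0.01. Members and lists were chosen with earlier results of these data known. The named genes were the 9 members, *Gsc2*, *T*, the 3 most abundant genes of each list, any that passed a test, and the 3 names most like *Eomes*, *Gsc* and *Foxa2*; other genes were named after their values were seen. The main test was limma (3.58.1, R 4.3.3; lmFit, eBayes with a trend) on log2(value + 1) over names with a mean of at least 10, two-sided, Benjamini-Hochberg, threshold 0.05. A fold change on this scale understates that of low genes. edgeR (4.0.16, quasi-likelihood) and DESeq2 (1.42.0) were run on the recovered reads as alternatives, with other pseudocounts, filters and scalings, a clone block, and libraries left out. The scripts were tested on simulated data. Deviations from the passage means correlated between the passages of a clone with r = 0.096 (clone 6), 0.27 (20), 0.70 (30) and 0.43 (36), over 12282 names; the pairing comes from the clone numbers of the labels, and for clone 6 the r with clone 36 was higher (0.28). Because replicates are clones, p-values between passages, without a clone block, are set against the spread between these 4 lines. Those of the clone test are set against the spread that remains between the passages of a clone. Positions are those of RefSeq for GRCm38.p6, and lengths per kb are unions of exons in GENCODE. The methods name a UCSC annotation for the counting, so these lengths may differ from those of the exons counted.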

Additional observations from a re-analysis of the deposited data

Results flagged for a closer look

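In a search of 20 groups of 4 libraries for a library far from the others, 1 was found, as many as chance gives at about 1 in 20. It was *Gsc* as listed at passage 16, where clone 6 was at 4.21 on the log2(normalized count + 1) scale and the other clones between 1.55 and 1.95, from rows that are not in register in at least 1 of those libraries.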

How the results depend on the processing

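Across 25 alternatives for the passages and 24 for the clones, of which 3 each were chosen after seeing the data, 0 members were called, and the lowest adjusted p of a member was 0.726 (passages) and 0.0551 (clones). With the clone as a block, that is the pairing of the libraries, limma called 0 names between passages (884 at an unadjusted p under 0.05) and edgeR 2, against 1 without it, and *Gsc* as listed had an unadjusted p under 0.05 in both; the block changed no other call of a member. DESeq2 called 46 names. Leaving out the displaced rows gave 0 (436 unadjusted) in limma and in edgeR (444 unadjusted), also with *Gsc* and *T* in order or *Gsc* exchanged only where fixed. Leaving out libraries gave 1 to 26, with 13 without clone 30 at passage 6, 12 without it at passage 16, 26 without both, 6 without both libraries of clone 20, 4 without either of them, 3 without clone 36 at passage 16 or without both libraries of clone 6 or of clone 36, and 2 without clone 6 at passage 16. Between clones the count was 20, against 1121 with DESeq2, 62 without the displaced rows in 3 limma fits and 74 in edgeR. Leaving out libraries gave 0 to 165, with 109, 165 and 95 without clone 6 at passage 6, at passage 16 and at both, 36 and 54 without clone 30 at passage 6 and at passage 16, and 0 without both libraries of clone 20 (1843 unadjusted). The causes were not tested.

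The *Fgf8* passage difference (0.0065) changed sign with a pseudocount of 10 (-0.0082), with edgeR and DESeq2 (-0.11 each), with edgeR and the block (-0.015) and with edgeR without the displaced rows (-0.11), and ran from -0.46 to 0.38 as libraries were left out. *Gsc* was 0.42 in order, and 0.42 or 0.47 in the added fits in order. As libraries were left out, *Mixl1* ran from -0.58 to 0.31, *Wnt3* from -0.35 to 0.15, *Eomes* from 0.0062 to 0.61 and *Foxa2* from -0.77 to -0.016. The largest difference between clones ran from 0.55 to 1.67 for *Mixl1*, 0.15 to 1.49 for *Fgf8*, 0.19 to 1.46 for *Eomes*, 0.47 to 1.28 for *Wnt3* and 1.03 to 2.12 for *Foxa2*. Depth limits *Evx1*, *Lhx1* and *Mesp1*, whose totals of 56, 21 and 15 reads allow no firm comparison.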
